A study of Homo sapiens with 12 samples.

Results

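The genes described here are 39 human genes of the lysosome and of autophagy, picked from the count tables by a list of symbols. All 39 were found among the 19677 genes listed, and all 39 were among the 12470 genes abundant enough to be tested. They comprised 8 lysosomal membrane proteins, 7 proteases, 7 glycosidases and lipid hydrolases, 3 luminal cofactors, 3 proton pump subunits or assembly partners, 2 transcription factors and 9 autophagy genes. Their RNA was measured in CAOV3 cells, an established epithelial line of high-grade serous ovarian carcinoma, labelled wild type and grown in DMEM with serum and antibiotics. The series was designed to look for transcriptional change after exposure to ovarian cancer ascites and to bezafibrate. Ascites is peritoneal fluid, which often builds up in women with this cancer. Bezafibrate is a lipid-lowering fibrate and an agonist of the PPAR nuclear receptors. The 12 libraries formed 4 groups of 3. Control cells received DMSO, the ascites group received 10% ascites and DMSO, the bezafibrate group received 200 uM of the drug, and the combination group received ascites and the drug at the same doses. Treatment lasted 16 h in the treated groups, and no time is given on the control labels. DMSO is named only for the groups without the drug, so the drug and the listed absence of DMSO cannot be told apart. A single cell line was used. The labels do not state whether replicates were separate cultures or whether the ascites had 1 source, so the p-values measure the spread between these libraries, which may be technical.

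Lysosomes are acidic organelles in which proteases, glycosidases and lipid hydrolases degrade material delivered by endocytosis and by autophagy. A V-type ATPase acidifies the lumen, and heavily glycosylated membrane proteins line the inner face of the limiting membrane and carry products out. In autophagy, a membrane grows around cytoplasmic cargo, receptors tether the cargo to lipid-linked LC3 and GABARAP proteins on that membrane, and the closed vesicle fuses with a lysosome. Many genes of both systems share an E-box in their promoters, the CLEAR element, which is bound by TFEB, TFE3 and MITF, and TFEB and TFE3 are kept out of the nucleus by mTORC1 at the lysosome.

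Total counts ranged from 11831093 to 18762759 per library. Levels are given as CPM, the count of a gene per unit of library size after TMM scaling. The epithelial keratins averaged 595 to 3129 CPM per group and EPCAM 27.6 to 31.3 CPM. Of the serous lineage markers, WT1, MUC16 and MSLN were too low to be tested and PAX8 averaged 0.378 to 1.11 CPM per group. The summed level of the 10 epithelial markers was 6153 to 6275 CPM in control, 6306 to 6477 CPM in ascites, 6408 to 6726 CPM in bezafibrate and 6876 to 6974 CPM in the combination. With the drug on average, 4 of the 7 that could be tested rose by edgeR's test and none fell: CDH1 by 1.60 on the log2 scale (adjusted p = 4.55e-25), PAX8 by 1.07 (adjusted p = 0.0189), KRT7 by 0.56 (adjusted p = 2.61e-22) and KRT19 by 0.26 (adjusted p = 1.04e-12). The 3 fibroblast and mesothelium markers summed to 10.1 to 12.1 CPM in control, 11.0 to 11.8 CPM in ascites, 6.78 to 7.49 CPM in bezafibrate and 6.16 to 7.81 CPM in the combination, and of these COL1A1 fell by 0.68 and COL3A1 by 0.84 with the drug. Of 14 leukocyte markers, 9 had no count in any of the 12 libraries, including PTPRC, CD163, AIF1 and C1QA. Those with counts were CD14 at 2.19 to 2.94 CPM per group, LYZ at 0.501 to 0.923 CPM, and MRC1, CSF1R and FCER1G. The last 3 were too low to be tested. FCER1G had 6 counts in control and 2 in ascites, against 17 in bezafibrate and 13 in the combination. The summed level of that list was 2.93 to 4.02 CPM in control, 2.42 to 3.83 CPM in ascites, 3.34 to 4.82 CPM in bezafibrate and 3.52 to 5.52 CPM in the combination. On a principal component analysis, combination replicate 3 stood apart on the second component, at -22.4 against -4.37 to 9.84 for the other libraries. Without it, 18 of the 39 genes were called in the averaged drug comparison and 13 in the combination against ascites.

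Promoter sequence is shown first, because the CLEAR element is the best known feature that lysosomal genes share and the drug response is read beside it below. RefSeq promoter windows (GRCh38.p14, from 250 bases before to 50 bases after the transcription start) were given for 31 of the 39 genes. The windows were not given for LAMP2, CTSB, LGMN, HEXA, ASAH1, PSAP, ATP6V1H and UVRAG. They were searched on both strands for the palindrome CACGTG, for TCACGTGA, which contains it, and for the extended palindrome, which is TCACGTGA with G before it and C after it. They were also searched for the DR1 element bound by PPAR with RXR, taken as AGGTCA, any base and AGGTCA again. A CACGTG match was found in 10 of the 31 genes (32.3%) and in 8.77% of the 27305 genes with a window. The longer TCACGTGA was found in 6 of the 31 (19.4%) and in 1.18% of all genes, and the extended palindrome in 2 of the 31 (6.45%) and in 0.421% of all genes. None of the 31 held the DR1 letters, which were in 0.0293% of all genes. A match describes letters in a window and is not evidence of binding. The following 30-base stretches show, for 9 genes, the match to the longest of these motifs that lies nearest upstream of the start site, read 5′ to 3′ on the gene's strand with the match in capitals. LAMP1, MCOLN1, CTSA, GAA and ATP6V0D1 carry one of the longer palindromes, and CD63, CTSD, NEU1 and ATG14 carry only CACGTG.
LAMP1: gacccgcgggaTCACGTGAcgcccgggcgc
MCOLN1: ctctgggctaccggGTCACGTGACcgaggc
CTSA: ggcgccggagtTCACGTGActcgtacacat
GAA: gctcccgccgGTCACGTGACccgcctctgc
ATP6V0D1: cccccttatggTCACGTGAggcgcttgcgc
CD63: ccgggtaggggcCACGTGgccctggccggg
CTSD: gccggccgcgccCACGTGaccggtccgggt
NEU1: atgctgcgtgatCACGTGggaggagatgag
ATG14: aaaacaaaatccCACGTGactggctctcct

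These stretches lie at chr13:113297199-113297228 (plus strand) for LAMP1, chr19:7522594-7522623 (plus) for MCOLN1, chr20:45891298-45891327 (plus) for CTSA, chr17:80101538-80101567 (plus) for GAA and chr16:67481199-67481228 (minus) for ATP6V0D1. Those of CD63, CTSD, NEU1 and ATG14 lie on the minus strand at chr12:55729172-55729201, chr11:1763957-1763986, chr6:31862930-31862959 and chr14:55411834-55411863. The 250 bases before the start of LAMP1 held 5 CACGTG matches, whereas those before the start of CTSZ, a protease gene of the same list, held none. Both are printed because LAMP1 did not pass the test with the drug and CTSZ had the second smallest p of the 39 genes. The pair was thus picked by its drug result and does not stand for the list. Of the 10 genes with a CACGTG match, 3 were called higher with the drug, 1 lower and 6 neither. A link between the match and the response was not tested. LAMP1 is at chr13:113296989-113297238 on the plus strand and CTSZ at chr20:59007255-59007504 on the minus strand, with CACGTG in capitals.
LAMP1: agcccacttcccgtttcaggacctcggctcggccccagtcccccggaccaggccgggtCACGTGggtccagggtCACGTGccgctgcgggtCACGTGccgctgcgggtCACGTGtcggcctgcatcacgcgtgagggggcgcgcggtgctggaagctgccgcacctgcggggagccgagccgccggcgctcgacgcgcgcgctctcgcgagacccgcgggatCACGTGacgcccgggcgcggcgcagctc
CTSZ: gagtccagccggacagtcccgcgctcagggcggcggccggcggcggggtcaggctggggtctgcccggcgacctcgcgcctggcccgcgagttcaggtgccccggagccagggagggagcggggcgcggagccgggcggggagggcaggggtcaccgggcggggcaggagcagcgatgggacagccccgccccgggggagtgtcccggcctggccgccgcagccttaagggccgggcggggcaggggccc

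Bezafibrate raised a subset of the lysosomal and autophagy genes and left others within narrow limits. Averaged over medium without and with ascites (6 libraries with the drug against 6 without), 20 of the 39 genes passed an adjusted p of 0.05, 16 higher and 4 lower, which is 51.3% of the list. Of all 12470 genes, 28.3% passed in the same comparison, with 15% higher and 13.2% lower. The list was chosen with earlier results of these data known. Its shares beside those of all genes, here and below, are therefore descriptive and are not a test of the list. Restricted to genes at a mean of at least 10 CPM, a threshold added after the data were seen, the figures were 20 of 36 genes and 31.7% of 9355 genes. The median log2 fold change was 0.05 over the 39 genes and -0.00 over all genes, and single genes ran from -0.18 to 0.69. In 11 of the 39 genes the 6 libraries with the drug all lay above the 6 without it, which was so for 9.01% of all genes, and in none did they all lie below (6.32% of all genes). The 39 genes together took 0.337% to 0.348% of counts in the libraries without the drug and 0.375% to 0.386% in those with it. The epithelial and the collagen markers given above also moved with the drug, and their part in the change of the 39 genes was not tested. RNA levels in bulk culture do not separate fewer expressing cells from less RNA per cell. All tests are edgeR's quasi-likelihood F test with Benjamini-Hochberg adjustment over all 12470 genes, and errors on log2 fold changes are standard errors (SE).

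**Figure D1:**
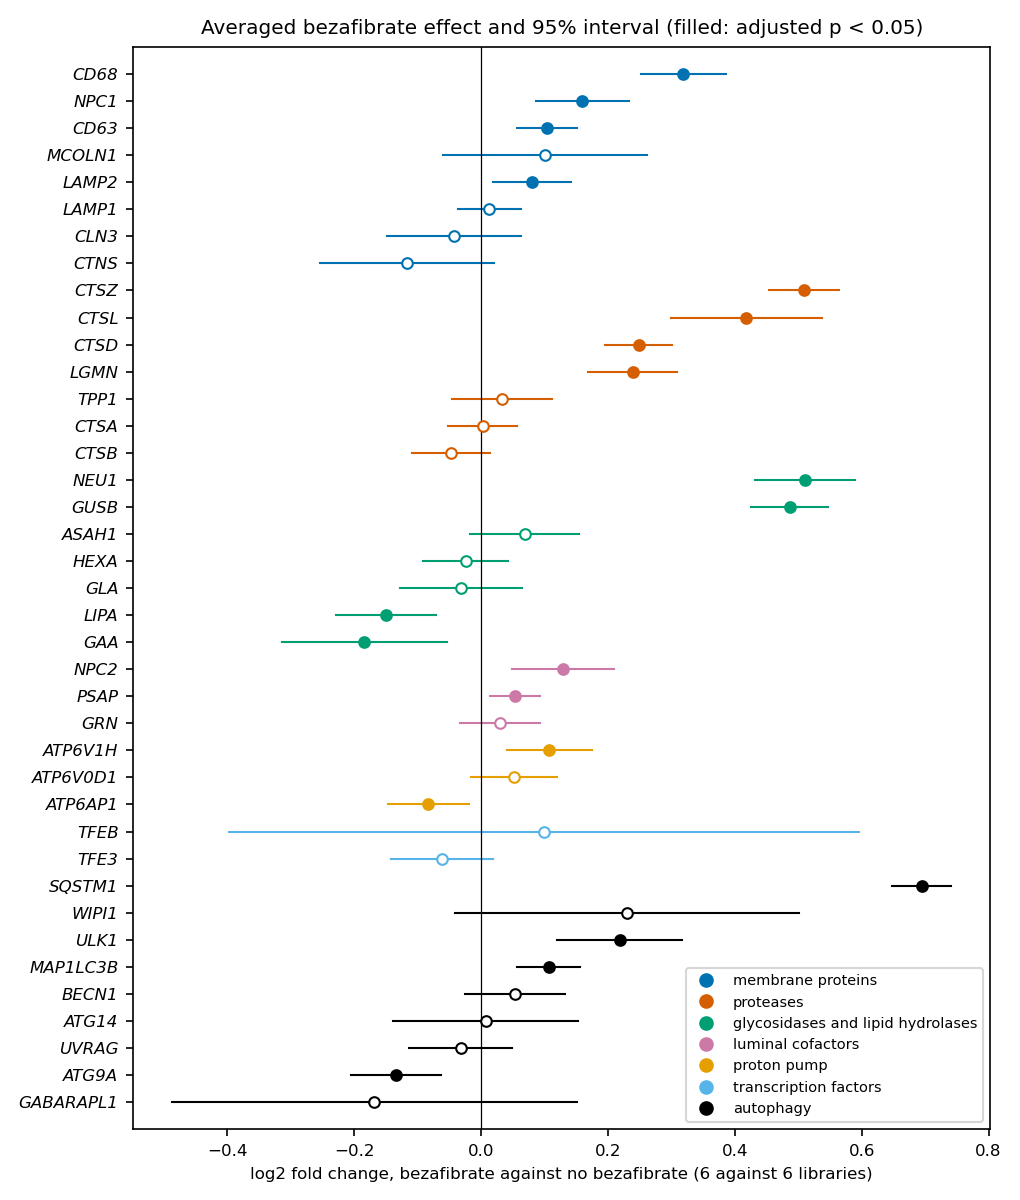
Log2 fold change with bezafibrate, averaged over medium without and with ascites, for each of the 39 genes grouped by role, with 95% confidence intervals over 6 against 6 libraries. Filled points passed an adjusted p of 0.05. SQSTM1 is farthest right at 0.69, followed by NEU1, CTSZ and GUSB, while LIPA, GAA, ATG9A and ATP6AP1 are the filled points left of 0.

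Among the 7 lysosomal proteases, 4 rose with bezafibrate (CTSZ, CTSL, CTSD and LGMN), none fell, and the median log2 fold change was 0.24. Over all 12470 genes, 15% were called higher and 13.2% lower. CTSZ encodes cathepsin Z, a cysteine carboxypeptidase. It stood at 125, 125 and 122 CPM in control and 124, 124 and 129 CPM in ascites, against 167, 170.1 and 181 CPM with bezafibrate and 183, 188 and 177 CPM with both. The lowest library with the drug was well above the highest without it, and the averaged log2 fold change was 0.51 (SE 0.027, adjusted p = 3.46e-18). CTSL, the cysteine endopeptidase cathepsin L, was at 19.3, 16.4 and 18.2 CPM in control, 17.02, 18.9 and 18.3 CPM in ascites, 26.2, 24.1 and 24.7 CPM with bezafibrate and 24.9, 20.2 and 24.1 CPM with both. The closest approach of the groups was combination replicate 2 at 20.2 CPM, still above control replicate 1. CTSL rose by 0.42 on the log2 scale (SE 0.058, adjusted p = 3.40e-07).

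CTSD, the aspartic protease cathepsin D, read 205, 189 and 193 CPM in control, 192, 195 and 194 CPM in ascites, 228, 224 and 241 CPM with bezafibrate and 243, 228 and 225 CPM with both. All 6 values with the drug exceeded all 6 without it, and the log2 fold change was 0.25 (SE 0.026, adjusted p = 6.35e-10). In GENCODE 29 the CTSD exons share 1304 bases with an annotated read-through gene that had 1037 counts in all, beside 37013 for CTSD. With both summed, an alternative added after the data were seen, the log2 fold change was 0.25 (SE 0.027, adjusted p = 8.76e-10). LGMN, the asparaginyl endopeptidase legumain that cleaves several cathepsins to their mature forms, was at 63.3, 57.2 and 61.7 CPM in control, 62.4, 64.6 and 68.6 CPM in ascites, 76.1, 71.5 and 75.0 CPM with bezafibrate and 74.6, 74.5 and 74.1 CPM with both. Its groups did not overlap either, and it rose by 0.24 (SE 0.035, adjusted p = 7.26e-07). The other 3 proteases did not pass. For CTSB (cathepsin B) the log2 fold change was -0.05 with a 95% interval of -0.11 to 0.01, for the carboxypeptidase CTSA it was 0.00 (-0.05 to 0.06), and for the tripeptidyl peptidase TPP1 it was 0.03 (-0.05 to 0.11). These 3 intervals all ended below the estimates of the 4 proteases that rose.

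**Figure D2:**
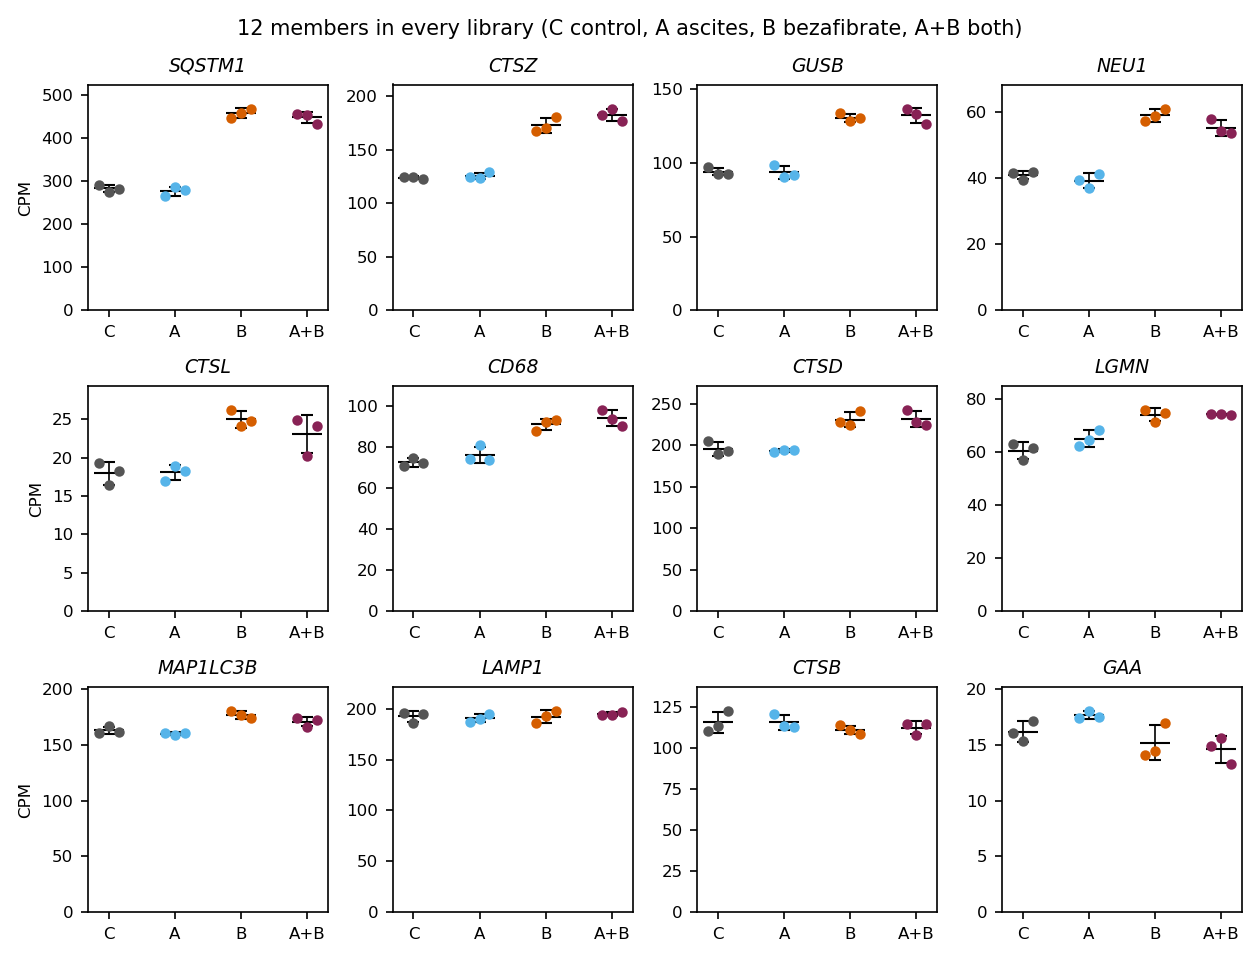
CPM in every library for 12 genes in the 4 groups (C control, A ascites, B bezafibrate, A+B both), with bars for the mean and SD of 3 libraries and each vertical axis starting at 0. SQSTM1, CTSZ, GUSB, NEU1, CTSL, CD68, CTSD and LGMN show no overlap between libraries with and without the drug, while LAMP1 and CTSB sit level across the groups.

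The 7 glycosidases and lipid hydrolases divided, with 2 higher and 2 lower, beside 15% and 13.2% of all genes. The median log2 fold change of the 7 was -0.02. GUSB, the lysosomal beta-glucuronidase, was at 97.4, 92.7 and 92.7 CPM in control, 98.9, 90.4 and 91.6 CPM in ascites, 134, 128 and 130.3 CPM with bezafibrate and 137, 134 and 127 CPM with both. NEU1, the lysosomal sialidase, was at 41.6, 39.5 and 41.9 CPM in control, 39.5, 37.1 and 41.4 CPM in ascites, 57.3, 58.8 and 61.1 CPM with bezafibrate and 58.1, 54.3 and 53.6 CPM with both. Neither gene overlapped between libraries with and without the drug. GUSB rose by 0.49 (SE 0.030, adjusted p = 3.40e-16) and NEU1 by 0.51 (SE 0.039, adjusted p = 1.62e-13). NEU1 protein works in a complex with the CTSA protein, whose gene did not pass the test.

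LIPA, the lysosomal acid lipase that hydrolyses cholesteryl esters and triglycerides, fell by 0.15 (SE 0.039, adjusted p = 0.00337). Its values ran from 83.5 to 94.5 CPM without the drug and from 75.1 to 88.2 CPM with it, so the groups overlapped. GAA, the acid alpha-glucosidase that degrades glycogen, fell by 0.18 (SE 0.064, adjusted p = 0.0276), from 15.3 to 18.03 CPM without the drug to 13.3 to 16.97 CPM with it. The GAA call was lost without any 1 of control replicate 3, ascites replicate 2, bezafibrate replicates 1 and 2 or combination replicate 3 (adjusted p 0.058 to 0.0804), and with DESeq2 (adjusted p = 0.0846). The remaining 3 enzymes did not pass: ASAH1 (acid ceramidase) had a log2 fold change of 0.07, HEXA (a subunit of beta-hexosaminidase) of -0.02 and GLA (alpha-galactosidase A) of -0.03.

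Of the 8 membrane proteins, 4 rose (CD68, NPC1, CD63 and LAMP2) and none fell, beside 15% and 13.2% of all genes. The median log2 fold change of the 8 was 0.09. CD68 is a glycoprotein of late endosomes and lysosomes that is best known as a macrophage marker. It stood at 70.8, 74.8 and 71.9 CPM in control, 74.2, 80.7 and 73.4 CPM in ascites, 87.8, 92.1 and 93.0 CPM with bezafibrate and 98.1, 93.5 and 90.3 CPM with both. No library with the drug reached down to one without it, and CD68 rose by 0.32 (SE 0.033, adjusted p = 4.44e-10). Of 14 leukocyte markers, 9 had no count, while CD14 averaged 2.19 to 2.94 CPM per group. Whether any CD68 RNA came from leukocytes was not tested. NPC1, which exports cholesterol from the lysosomal membrane, was at 54.5, 60.0 and 58.1 CPM in control, 49.3, 50.7 and 52.9 CPM in ascites, 63.6, 62.7 and 60.9 CPM with bezafibrate and 57.4, 58.4 and 60.3 CPM with both. Each group with the drug lay above the group in the same medium without it, while the combination values overlapped those of control, and NPC1 rose by 0.16 (SE 0.036, adjusted p = 0.000602). NPC2, the soluble partner that hands cholesterol to NPC1, rose by 0.13 (SE 0.040, adjusted p = 0.0114).

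CD63, a tetraspanin of late endosomes and exosomes, ran from 262 to 275.7 CPM in the 6 libraries without the drug and from 276.4 to 299 CPM in the 6 with it. The ranges lay close together without overlapping, and CD63 rose by 0.10 (SE 0.023, adjusted p = 0.000612). LAMP1 and LAMP2 are the best known glycoproteins of the lysosomal membrane. LAMP1 was at 186 to 196 CPM without the drug and 186 to 198 CPM with it, with a log2 fold change of 0.01 and a 95% interval of -0.04 to 0.06. LAMP2 was called at 0.08 (SE 0.031, adjusted p = 0.0443). That call was lost with DESeq2 (adjusted p = 0.0898), with upper-quartile scaling (0.125), with no filter on low counts (0.0584) and without any 1 of control replicate 3, the 3 ascites replicates, bezafibrate replicates 1 and 3 or combination replicate 2 (adjusted p 0.0621 to 0.205). Of the other membrane proteins, the calcium channel MCOLN1 had a log2 fold change of 0.10 (SE 0.078), CLN3 of -0.04 (SE 0.052) and the cystine exporter CTNS of -0.12 (SE 0.067). None of the 3 passed. CTNS was called only without combination replicate 3, at -0.16 (adjusted p = 0.0441).

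Of the 3 luminal cofactors, 2 were called higher, PSAP and the NPC2 gene given above. Of the 3 proton pump genes, 1 was called higher and 1 lower. Over all genes, 15% were called higher and 13.2% lower, and groups of 3 are too small to set beside those shares. The log2 fold changes ran from 0.03 to 0.13 in the cofactors and from -0.08 to 0.11 in the pump genes. PSAP, the precursor of the saposins that present lipids to hydrolases, ran from 468 to 479 CPM without the drug and from 484 to 500.3 CPM with it. The 2 ranges did not overlap, but the difference was only 0.05 on the log2 scale (SE 0.020, adjusted p = 0.0351). The PSAP call was lost without any 1 of the 3 control replicates, the 3 ascites replicates, bezafibrate replicates 1 and 3 or combination replicate 3 (adjusted p 0.0519 to 0.0889), with upper-quartile scaling (adjusted p = 0.164) and with no filter on low counts (0.0781). GRN, the progranulin gene, had a log2 fold change of 0.03 (95% interval -0.03 to 0.09). Of the 3 pump genes, ATP6V1H of the cytosolic sector rose by 0.11 (SE 0.033, adjusted p = 0.0123), ATP6V0D1 of the membrane sector did not pass at 0.05 (SE 0.033), and ATP6AP1, an accessory subunit, was called lower at -0.08 (SE 0.031, adjusted p = 0.0448). The ATP6AP1 call was lost with DESeq2 (adjusted p = 0.0813), with limma-voom (0.0582) and without any 1 of control replicates 1 and 3, ascites replicates 1 and 2, the 3 bezafibrate replicates or combination replicates 2 and 3 (adjusted p 0.0586 to 0.184).

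Among the 9 autophagy genes, 3 rose (SQSTM1, ULK1 and MAP1LC3B) and 1 fell (ATG9A), beside 15% and 13.2% of all genes. The median log2 fold change of the 9 was 0.05, equal at this rounding to that of all 39 genes. SQSTM1 encodes p62, the receptor that links ubiquitinated cargo to LC3, and it is also a transcriptional target of NRF2. It was at 292, 276 and 282 CPM in control, 265, 285 and 278 CPM in ascites, 445, 459 and 468 CPM with bezafibrate and 455, 454 and 434 CPM with both. The gap between the highest library without the drug and the lowest with it was wider than the spread within any group. The log2 fold change was 0.69 (SE 0.023, adjusted p = 2.32e-24), a rise of 1.62-fold. The SQSTM1 exons overlap those of MRNIP on the opposite strand over 20.7% of their length, and MRNIP had 2727 counts beside 64068 for SQSTM1. They also overlap MGAT4B, with 52693 counts, on the opposite strand over 1.37% of their length. Strandedness is not given in the sources used here, so reads of the shared stretches cannot be told apart. Other genes of the list share exon bases with a neighbour too. Among them are WIPI1 (24.3%, with ARSG), CTSA (17.7%, with NEURL2) and BECN1 (12.4%, with CNTD1), all on the opposite strand. Shorter overlaps on the opposite strand involve neighbours with more counts. CTSA (27533 counts) shares 3.42% with PLTP (37710 counts), and BECN1 (9528 counts) shares 4.68% with PSME3 (49715 counts). CLN3 shares 25.2% with a gene of 8 counts on the same strand.

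MAP1LC3B, the LC3 protein that is conjugated to the growing membrane, ran from 158 to 167 CPM without the drug and from 166.0 to 180.3 CPM with it. The ranges overlapped only through combination replicate 2, and it rose by 0.11 (SE 0.025, adjusted p = 0.000845). Reads shared with its near-identical copy MAP1LC3B2 could be divided either way, so its value is uncertain to that extent. ULK1, the kinase that starts autophagy, was at 32.9, 29.3 and 33.8 CPM in control, 35.2, 31.6 and 32.9 CPM in ascites, 38.4, 40.5 and 41.7 CPM with bezafibrate and 37.7, 37.8 and 31.5 CPM with both. The 3 bezafibrate libraries and 2 of the 3 combination libraries lay above every library without the drug, whereas combination replicate 3 lay among them. ULK1 rose by 0.22 on average (SE 0.049, adjusted p = 0.000531). ATG9A, the lipid scramblase carried on vesicles that seed the autophagosome, fell by 0.13 (SE 0.035, adjusted p = 0.00315), from 70.9 to 83.7 CPM without the drug to 66.1 to 74.5 CPM with it.

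The other 5 autophagy genes did not pass. BECN1, ATG14 and UVRAG, which encode partners of the VPS34 lipid kinase complexes, had log2 fold changes of 0.05 (SE 0.039), 0.01 (SE 0.072) and -0.03 (SE 0.040). GABARAPL1, an LC3-related protein, and WIPI1, which binds the lipid made by VPS34, were both under 7 CPM in every library, with log2 fold changes of -0.17 (SE 0.16) and 0.23 (SE 0.13). At that depth neither a rise nor a fall of those sizes was detectable. The transcription factor TFEB ran from 0.476 to 1.61 CPM over the 12 libraries, and its 95% interval of -0.40 to 0.60 was too wide to place it. TFE3 was well measured, at 36.5 to 43.1 CPM without the drug and 36.6 to 39.9 CPM with it, and had a log2 fold change of -0.06 (95% interval -0.14 to 0.02).

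Another 133 genes of the same pathways were listed to set the 39 in their surroundings, of which 128 could be tested. With bezafibrate on average, 39 of the 128 passed (25 higher and 14 lower), or 30.5% beside 28.3% of all genes, with a median log2 fold change of 0.03. Further hydrolases and luminal proteins divided, with 6 higher and 5 lower of 30 (36.7% called). FUCA1 (lysosomal alpha-fucosidase) was higher at 0.36 and GALNS (a sulfatase of keratan sulfate) at 0.19, while SGSH (heparan sulfamidase) was lower at -0.31 and CTSF (cathepsin F) at -0.26. Of 17 further membrane proteins, 6 rose and 2 fell (47.1% called). The sialic acid exporter SLC17A5 rose by 0.56 (SE 0.059, adjusted p = 7.78e-10), the arginine-sensing transporter SLC38A9 by 0.38 and the nucleoside transporter SLC29A3 by 0.36, whereas LAPTM4A fell by 0.30 (SE 0.027, adjusted p = 6.65e-12).

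Of 13 further pump subunits, 2 rose (ATP6V1D by 0.17 and ATP6V1E1 by 0.10) and none fell. That was 15.4% called, beside 28.3% of all genes (15% higher and 13.2% lower). The mannose 6-phosphate sorting route delivers new hydrolases to the lysosome. There 1 of 9 rose (M6PR by 0.08) and 2 fell (SORT1 by 0.17 and GGA2 by 0.15), or 33.3% called. Of 34 further genes of the autophagy machinery, 5 rose and 4 fell (26.5% called), a share near that of all genes. The largest rises were those of WDR45, PLEKHM1 and PIK3C3 at 0.27, 0.26 and 0.24. Of 10 further autophagy receptors 4 rose and none fell (40% called), with the mitophagy receptor BNIP3L at 0.29 (SE 0.046, adjusted p = 4.61e-06). Among 15 MiT factors and nutrient-sensing genes, 1 rose, the Rag GTPase RRAGA by 0.27, and 1 fell (13.3% called, under the share of all genes). The gene that fell was MITF, the third E-box factor beside TFEB and TFE3, at 75.8 ± 1.92 and 75.9 ± 4.23 CPM without the drug and 49.8 ± 1.58 and 50.4 ± 3.58 CPM with it (mean ± SD, n = 3 each, in the order control, ascites, bezafibrate, combination). Its log2 fold change was -0.60 (SE 0.037, adjusted p = 4.72e-16 by edgeR).

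The drug comparison could be made separately in medium without ascites (bezafibrate against control) and with it (combination against ascites), which share no library. Without ascites 12 of the 39 genes passed (11 higher, 1 lower), or 30.8% beside 17.6% of all genes (10.1% higher and 7.55% lower). With ascites 13 passed (11 higher, 2 lower), or 33.3% beside 17.8% of all genes (10.5% higher and 7.29% lower). Libraries with and without the drug did not overlap for 14 genes higher and 2 lower without ascites (17.2% and 16.3% of all genes), and for 16 higher and 2 lower with it (16% and 14.5% of all genes). The same 9 genes passed in both: SQSTM1, CTSZ, GUSB, NEU1, CTSL, CD68, CTSD, LGMN and CD63. Among the 39 genes 33 had the same sign in both, and Pearson's r between the 2 sets of fold changes was 0.866, against 73.0% of the same sign and r = 0.675 over all tested genes. The median SE without and with ascites was 0.049 and 0.052 over the 39 genes, and 0.067 and 0.069 over all genes. Genes of matched abundance were not compared. SQSTM1 rose by 0.69 (SE 0.032, adjusted p = 2.86e-19) without ascites and by 0.70 (SE 0.033, adjusted p = 2.83e-19) with it. CTSZ rose by 0.48 and 0.54, GUSB by 0.47 and 0.50, NEU1 by 0.53 and 0.49, CTSL by 0.47 and 0.36, and CD68 by 0.33 and 0.31. For each of these 6 genes the 2 values differed by less than 2 SE of their difference.

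The other 7 calls were made in 1 medium only. Without ascites ULK1 rose by 0.33 (adjusted p = 0.000299), MAP1LC3B rose by 0.12 (adjusted p = 0.0125) and LIPA fell by 0.18 (adjusted p = 0.0187), with values of 0.11, 0.10 and -0.12 in the presence of ascites. With ascites ATG9A fell by 0.21 (adjusted p = 0.00224), NPC1 rose by 0.20 (adjusted p = 0.00469), GAA fell by 0.27 (adjusted p = 0.0327) and NPC2 rose by 0.16 (adjusted p = 0.0396), with values of -0.06, 0.12, -0.10 and 0.09 in its absence. The difference between the media passed for none of the 39 genes, as given below with the interaction test. Leaving out 1 library ended several of these edgeR calls. Without ascites that held for CD63 (control 2 or 3, bezafibrate 1 or 3, adjusted p 0.118 to 0.205), LIPA (control 1 or 3, bezafibrate 1 or 3, 0.0814 to 0.114) and MAP1LC3B (control 1 or 3, bezafibrate 1, 0.0587 to 0.0751). With ascites it held for GAA and NPC2 (any ascites library, combination 1 or 3, 0.0539 to 0.136 and 0.0505 to 0.163), CD63 (ascites 3 or combination 1, 0.0852 and 0.0828) and LGMN (ascites 1, 0.0506). Apart from the stricter adjusted p of 0.01, other settings ended 3 of these calls. CD63 without ascites was lost with DESeq2 (adjusted p = 0.0633), limma-voom (0.0548) and upper-quartile scaling (0.12). With ascites, GAA was lost with DESeq2 (adjusted p = 0.0978), and NPC2 with DESeq2 (0.121), upper-quartile scaling (0.0732), no filter on low counts (0.0599) and a fit of only the libraries compared (0.0729).

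**Figure D3:**
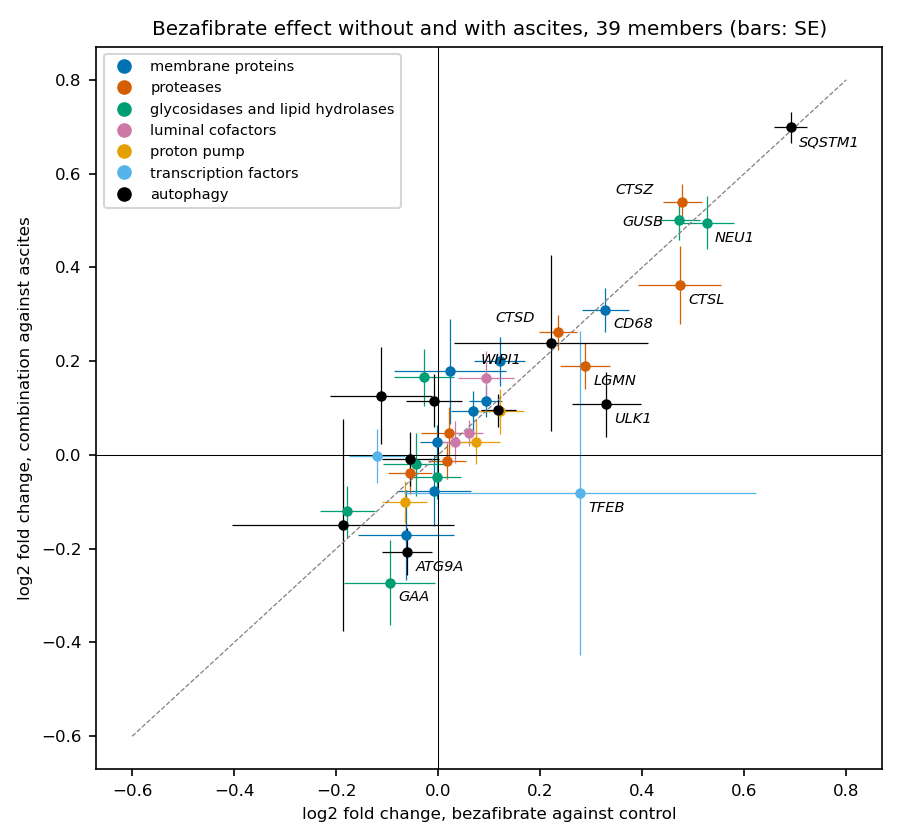
Log2 fold change of the 39 genes with bezafibrate in medium without ascites (horizontal axis) and with ascites (vertical axis), bars giving SE and the dashed line marking equal values. SQSTM1 lies on the line at 0.69 and 0.70, and 33 of 39 points have the same sign on both axes.

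Ascites alone changed none of the 39 genes by edgeR's test, and it changed few genes at all. In ascites against control 0 of the 39 passed, by DESeq2 0 and by limma-voom 0, beside 0.0882% of all genes by edgeR. At an unadjusted p under 0.05 there were 6 of the 39 and 749 of 12470 genes, or 6.01%. The smallest adjusted p was 0.511, for NPC1, which was at 54.5, 60.0 and 58.1 CPM in control and 49.3, 50.7 and 52.9 CPM in ascites (log2 fold change -0.17, SE 0.052). The NPC1 libraries of the 2 groups did not overlap, although the gene did not pass. Such separation was seen for 8 of the 39 genes, with ascites higher in 2 (5.64% of all genes) and lower in 6 (7.06% of all genes). The others under the unadjusted threshold were TFE3 (-0.16), ASAH1 (-0.14), BECN1 (-0.13), ATG9A (0.12) and LGMN (0.10). The median log2 fold change over the 39 genes was -0.00. Among the 36 genes at a mean of at least 10 CPM, fold changes ran from -0.17 to 0.13 and no 95% interval reached below -0.34 or above 0.31. Each of the 8 genes with the smallest p for bezafibrate had a log2 fold change between -0.06 and 0.10 with ascites.

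In the presence of the drug, ascites again gave no call. In the combination against bezafibrate 0 of the 39 genes passed by edgeR, 0 by DESeq2 and 0 by limma-voom, beside 0.128% of all genes by edgeR, and 2 of the 39 had an unadjusted p under 0.05, beside 4.79% of all genes. These 2 were ULK1 (-0.17, unadjusted p = 0.0173, adjusted p = 0.828) and CTSZ (0.08, unadjusted p = 0.0313, adjusted p = 0.952). The libraries of the 2 groups did not overlap for 3 of the 39 genes, with the combination lower in all 3 (4.83% of all genes) and higher in none (4.44% of all genes). The interaction test asks whether the drug effect differed between the media. By edgeR it was passed by 0 of the 39 genes and 0% of all genes, and by 0 of the 39 with DESeq2 and with limma-voom. At an unadjusted p under 0.05 it held 3 of the 39 (ULK1 at -0.22, ASAH1 at 0.19 and ATG9A at -0.15) and 3.57% of all genes, with an adjusted p of 0.999 for each of the 3. For the 36 genes above 10 CPM the median half-width of the 95% interval on the interaction was 0.14. That interval is not adjusted for the number of genes tested. Differences larger than 0.14, such as those of ULK1 and ASAH1, therefore also went uncalled.

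**Figure D4:**
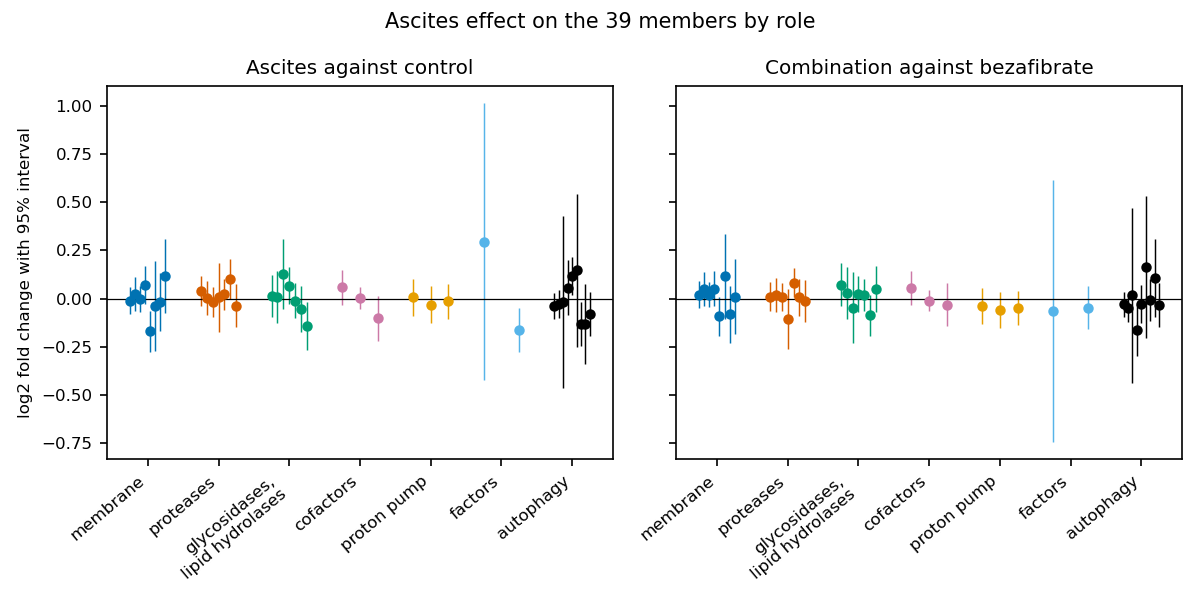
Log2 fold change with 95% interval for the 39 genes by role, for ascites against control (left) and the combination against bezafibrate (right). No gene passed an adjusted p of 0.05 in either panel, and the widest interval belongs to TFEB, at 0.476 to 1.61 CPM.

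The drug response was set beside the promoter matches shown at the start. Of the 6 genes with TCACGTGA in their window, extended or not (LAMP1, MCOLN1, CLN3, CTSA, GAA and ATP6V0D1), none rose and 1 fell (GAA), and their median log2 fold change was 0.01 with a range of -0.18 to 0.10. Of the 4 with CACGTG alone, CD63, CTSD and NEU1 rose and ATG14 did not pass, with a median of 0.18. Of the 21 with none of these letters, 9 rose, 3 fell and 9 did not pass, with a median of 0.10. SQSTM1, CTSZ, GUSB, CTSL, CD68, ULK1, NPC1, NPC2 and MAP1LC3B were the 9 that rose. LAMP1, with 6 CACGTG matches in its window, had an averaged log2 fold change of 0.01 (SE 0.025). Over all 12470 genes, 15% were called higher and 13.2% lower in this comparison. Of the 31 genes with a window, 12 were called higher and 4 lower. The groups are small and were not tested against each other or against all genes.

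**Figure D5:**
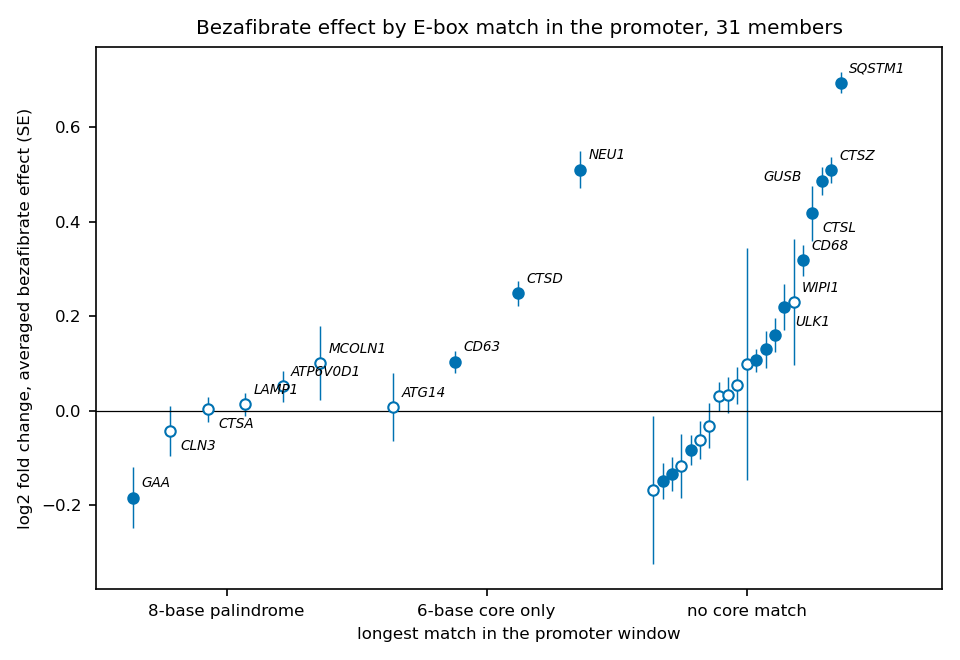
Averaged log2 fold change with bezafibrate (bars: SE) for the 31 genes with a RefSeq promoter window, by the longest E-box match in the window, filled points passing an adjusted p of 0.05. The 6 genes with a longer palindrome span -0.18 to 0.10, and the 21 without a match span -0.17 to 0.69.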

How the data were processed

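RNA of CAOV3 cells was sequenced in 12 libraries, and for each library the authors deposited whole-number counts by gene. The submitters' processing notes name Trimmomatic 0.39, STAR 2.7.9a, RSEM 1.3.3, DESeq2 1.28.1 and GRCh38, without roles, so the deposited counts may be rounded estimates. Strandedness and annotation release are not given in the sources used here. Groups came from the labels. In edgeR 4.0.16, filterByExpr with a minimum count of 10 and a minimum total of 15 removed 7207 of 19677 genes, and libraries were scaled by TMM. One mean per group was fitted over all 12 libraries (8 residual degrees of freedom, robust quasi-likelihood), and 6 contrasts were tested with Benjamini-Hochberg adjustment over 12470 genes. The pipeline was tested on simulated data. Alternatives were RLE and upper-quartile scaling, other filters, DESeq2 1.42.0, limma-voom (limma 3.58.1), fits of only the libraries compared, a replicate block, leaving out each library, and an adjusted p of 0.01.

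The members and lists were chosen with earlier results of these data known. Any member could be named, with values in every library for up to 12 genes of smallest adjusted p in the averaged drug contrast. From each further list, up to 3 called genes with the largest rise and 3 with the largest fall could be named. Some genes that this rule would name are not reported here.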

Additional observations from a re-analysis of the deposited data

How the results depend on the processing

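The number of the 39 genes called kept within 1.5 times of the reported count under every alternative run. Leaving out 1 library at a time gave 9 to 12 genes for bezafibrate against control, 10 to 15 for the combination against ascites and 16 to 20 for the averaged drug comparison, and 0 in every fit for both ascites comparisons and the interaction. DESeq2 called 11, 11 and 17 genes in the 3 drug comparisons, limma-voom 11, 13 and 19, upper-quartile scaling 11, 12 and 18, and an adjusted p of 0.01 left 9, 10 and 14. No gene reversed its direction after being called. Apart from the stricter threshold, 9 of 12, 9 of 13 and 16 of 20 calls were kept in every alternative. Upper-quartile scaling moved the share of higher genes among all those called from 57.2% to 49.0% without ascites, from 58.9% to 49.3% with ascites and from 53.2% to 43.3% on average. Over all genes, ascites against control gave 11 calls and 3 to 59 under the alternatives, the combination against bezafibrate 16 and 6 to 52, and the interaction 0 and up to 36, the highest without a filter on low counts in each case. The combination against ascites gave 2214 calls and 1475 at an adjusted p of 0.01. In the averaged drug comparison, upper-quartile scaling moved the median log2 fold change of all genes from -0.0047 to -0.0228. The median of the 39 genes moved from 0.054 to 0.036. With combination replicate 1 left out, BECN1 and ATP6AP1 were also called in the combination against ascites, with combination replicate 2 left out ASAH1 and MAP1LC3B, with combination replicate 3 left out MCOLN1 and CTNS, and with ascites replicate 1 left out ASAH1.

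Replicate numbers did not pair the libraries. Over 18 pairs of libraries with the same number, the correlation of deviations from group means ran from -0.267 to 0.185, and 4 of 12 libraries correlated best with one of their own number. With the replicate block the calls numbered 12, 13 and 19 in the 3 drug comparisons and 0 in the other 3, and the averaged LAMP2 call was lost (adjusted p = 0.0543). The summed CTSD count and the 10 CPM threshold were chosen after seeing the data. Depth limits TFEB, GABARAPL1 and WIPI1, whose intervals are the widest of the list.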
